A study of Mus musculus with 6 samples.

Results

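The miR-17~92 cluster is a set of microRNAs (miRNAs) cut from 1 long non-coding transcript, Mir17hg, on mouse chromosome 14. Its mature miRNAs described here are miR-17-5p, miR-17-3p, miR-18a-5p, miR-19a-3p, miR-19b-3p, miR-20a-5p and miR-92a-3p. They were taken by name as 7 of the 1960 mature miRNAs in the count table, and all 7 had counts in each of the 6 libraries. The libraries come from small RNA sequencing of immune cells isolated from the livers of wildtype female C57BL/6J mice aged 10 weeks, with 2 libraries, named biological replicates, in each of 3 groups. ConA+D8THC mice were given 12.5 mg/kg of concanavalin A (ConA) by the retro-orbital route. ConA is a lectin from jack beans that stimulates T cells, and in mice its injection leads to hepatitis. The same mice had delta-8-tetrahydrocannabinol (D8THC), a compound of the cannabis plant, at a dose of 20 mg/kg in 100 µL of DMSO and corn oil by the peritoneal route, once 15 to 18 h ahead of ConA and once more 30 min later than it. ConA+Vehicle mice had the same ConA injection with DMSO in corn oil in place of D8THC, and Vehicle mice had DMSO in corn oil and no ConA. How many mice stood behind a library, when after ConA the cells were taken, and whether sorting followed the dissociation is not given in the sources used here.

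A mature miRNA guides the silencing complex to messenger RNAs that pair with its seed, the bases from position 2 to 8, and lowers their translation and stability. Mir17hg is transcribed under Myc and E2F factors, and its miRNAs are known to favour cell division and survival, in part by repressing the death factor Bim and the cell cycle inhibitor p21. In mouse T cells the cluster is known to be induced on activation and to support the expansion of T cells and the Th1 response.

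The mature sequences show which members act through the same seed, and they are given 5′ to 3′ from RefSeq (GRCm38.p6, the assembly also called mm10), which held all 7, with the seed in capitals. miR-17-5p and miR-20a-5p share a seed, as do miR-19a-3p and miR-19b-3p, while miR-18a-5p, miR-92a-3p and miR-17-3p each have their own.
miR-17-5p: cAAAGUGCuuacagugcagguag
miR-20a-5p: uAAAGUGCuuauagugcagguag
miR-18a-5p: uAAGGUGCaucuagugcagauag
miR-19a-3p: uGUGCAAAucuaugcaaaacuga
miR-19b-3p: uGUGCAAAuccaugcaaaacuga
miR-92a-3p: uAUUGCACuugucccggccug
miR-17-3p: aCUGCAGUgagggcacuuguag

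Counting from 1 at the 5′ end, miR-17-5p differs from miR-20a-5p by C1U and C12U, and miR-19a-3p from miR-19b-3p by U11C. The Mir17 hairpin gives both miR-17-5p and miR-17-3p, which form its opposite strands, and it is shown with those arms in capitals because it is the only hairpin with both arms among the members.
Mir17 hairpin: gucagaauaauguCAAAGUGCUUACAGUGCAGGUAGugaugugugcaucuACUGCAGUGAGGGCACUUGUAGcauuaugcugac

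Mir17hg is annotated in GENCODE as a lincRNA with 2 exons on the plus strand at chr14:115042879-115046727. All 6 hairpins lie in its exon 2, in the order Mir17, Mir18, Mir19a, Mir20a, Mir19b-1 and Mir92-1, and together span 836 bases, with Mir17 at chr14:115043671-115043754 and Mir92-1 at chr14:115044427-115044506. miR-19b-3p and miR-92a-3p have the same mature sequence in a second hairpin each, Mir19b-2 and Mir92-2, of the paralogous miR-106a to miR-363 cluster on chromosome X. Their counts therefore cannot be assigned to Mir17hg alone, whereas those of miR-17-5p, miR-17-3p, miR-18a-5p, miR-19a-3p and miR-20a-5p name hairpins of Mir17hg.

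Library totals ran from 322764 to 1172389 counts, and 297 miRNAs had enough counts to be tested, among them all 7 members. Levels are given as CPM, counts scaled to library totals that were adjusted by the trimmed mean of M-values (TMM), and 3 counts stand for 2.63 to 9.93 CPM. The tissue label was set against markers of several cell types, and none of the listed markers was at 0. The pan-haematopoietic miR-142a arms took 7.72% to 11.2% of the counts in ConA+D8THC, 9.03% to 10.3% in ConA+Vehicle, and 2.53% to 7.31% in Vehicle libraries. Markers of cells that are not immune cells were also abundant. The endothelial miR-126a arms took 20.7% to 26.7%, 12.8% to 13.2% and 32.7% to 34.2% in these groups, and 6 hepatocyte miRNAs took 5.18% to 7.15%, 17.1% to 19.7% and 8.35% to 13.9%.

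All 7 members were higher in ConA+Vehicle than in Vehicle liver immune cells, by 2.78-fold for miR-17-5p to 5.61-fold for miR-18a-5p. Their summed level was 11344 and 8264 CPM in ConA+Vehicle libraries, against 3698 and 2227 CPM in Vehicle libraries. All 7 were also higher in ConA+D8THC than in Vehicle cells, with sums of 8497 and 6146 CPM in the ConA+D8THC libraries. None was called different between ConA+D8THC and ConA+Vehicle cells. The cluster was a small share of the miRNA counts in all groups, at 0.902% and 0.625% in ConA+D8THC, 1.19% and 0.774% in ConA+Vehicle, and 0.355% and 0.217% in Vehicle libraries.

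**Figure D1:**
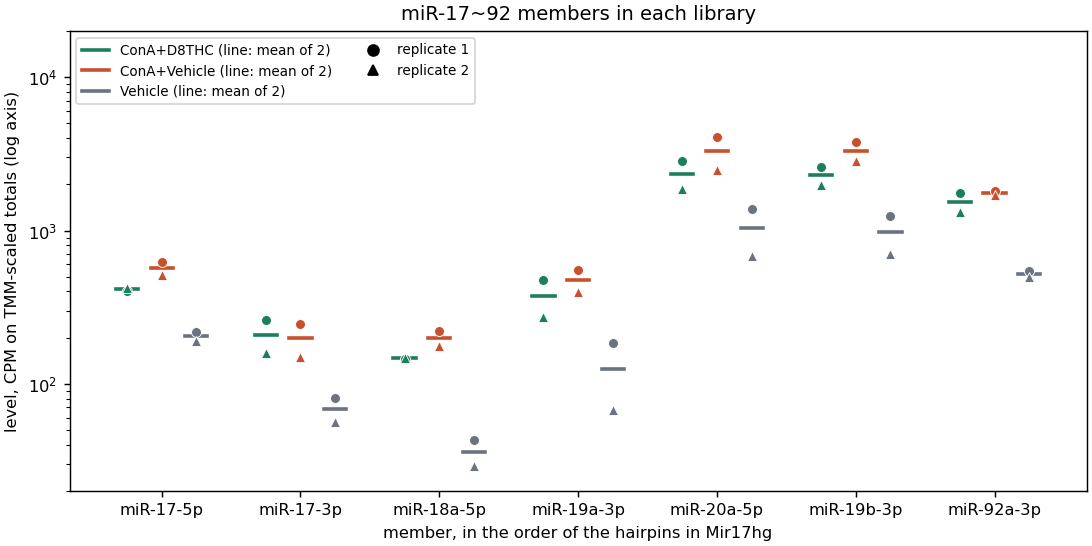
Level of each member (CPM on TMM-scaled totals, log axis) in the 6 libraries, with members along the x axis in the order of their hairpins, points for single libraries and a line for each group's mean. For every member both ConA+D8THC and both ConA+Vehicle libraries lie above both Vehicle libraries, while ConA+D8THC and ConA+Vehicle libraries overlap for 4 of the 7.

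The comparison of ConA+Vehicle with Vehicle cells asks how the cluster differs in mice given ConA. The lectin's own action on T cells and the hepatitis cannot be told apart here. The edgeR quasi-likelihood test, with Benjamini-Hochberg adjustment over the 297 tested miRNAs, called 7 of 7 members higher, where 19.9% of all tested miRNAs were called higher. For each of the 7 both ConA+Vehicle values exceeded both Vehicle values, and ConA+Vehicle lay wholly above Vehicle for 38.0% of all tested miRNAs. The members' median log2 difference was 1.74, beside 0.10 over all tested miRNAs. In bulk RNA of this kind a change in how many cells of a type were present and a change in the RNA per cell cannot be told apart.

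In the miR-17 seed group, miR-17-5p, a repressor of p21 and Bim, stood at 620.8 and 509.7 CPM in ConA+Vehicle libraries, against 216.7 and 191.1 CPM in Vehicle libraries. The lowest ConA+Vehicle value was more than the highest Vehicle value, and replicates lay close together in both groups. Its log2 difference was 1.47 ± 0.24 (approximate SE, adjusted p = 0.000929, edgeR). miR-20a-5p, which shares that seed and was the most or second most abundant member in every group, stood at 4099 and 2489 CPM in ConA+Vehicle libraries, against 1384 and 684.6 CPM in Vehicle libraries. It was thus higher in both ConA+Vehicle libraries, but its replicates lay farther apart than those of miR-17-5p. The log2 difference was 1.67 ± 0.39 (adjusted p = 0.00941), and miR-20a-5p outnumbered miR-17-5p in every library, by 7.0 and 4.37 counts to 1 in ConA+D8THC, 6.60 and 4.88 in ConA+Vehicle, and 6.39 and 3.58 in Vehicle libraries.

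miR-18a-5p, whose processing from the hairpin is known to be aided by the RNA-binding protein hnRNP A1, had the largest log2 difference of the 7. It stood at 221.9 and 175.4 CPM in ConA+Vehicle libraries, against 42.8 and 28.9 CPM in Vehicle libraries, where it was the least abundant member with 31 and 33 counts. The ConA+Vehicle values were several times the Vehicle values in each pairing of libraries, with a log2 difference of 2.49 ± 0.35 (adjusted p = 0.000419).

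The miR-19 pair, known from mouse lymphoma models as the part of the cluster that promotes cell survival most, was also higher. miR-19a-3p stood at 551.0 and 393.8 CPM in ConA+Vehicle libraries, against 183.5 and 67.5 CPM in Vehicle libraries. The Vehicle libraries differed more from each other than those of any other member, and the log2 difference of 1.93 ± 0.48 (adjusted p = 0.0123) became 2.79 without Vehicle replicate 1 and 1.37 without Vehicle replicate 2. Without ConA+Vehicle replicate 1 it was no longer called (1.70, adjusted p = 0.0502). miR-19b-3p stood at 3797 and 2850 CPM in ConA+Vehicle libraries, against 1245 and 698.7 CPM in Vehicle libraries. It did not overlap between the groups, and its log2 difference was 1.78 ± 0.31 (adjusted p = 0.00134).

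miR-92a-3p, of the miR-25/92 seed group, stood at 1808 and 1698 CPM in ConA+Vehicle libraries, against 546.5 and 500.5 CPM in Vehicle libraries. Its replicates lay closer together than those of any other member in both groups, and its log2 difference was 1.74 ± 0.23 (adjusted p = 0.000379). miR-17-3p, the strand opposite miR-17-5p, stood at 246.8 and 148.9 CPM in ConA+Vehicle libraries, against 80.0 and 56.1 CPM in Vehicle libraries. It too was higher in both ConA+Vehicle libraries, with a log2 difference of 1.56 ± 0.39 (adjusted p = 0.00941), and it was no longer called with ConA+Vehicle replicate 1 left out (1.16, adjusted p = 0.0773).

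Some miRNAs that mark other cell types differed between the same groups, and not all in 1 direction. The 4 summed myeloid markers took 2.76% to 2.92% of ConA+Vehicle and 0.348% to 0.365% of Vehicle counts, but 2 were called higher and 2 lower. The neutrophil miRNA miR-223-3p, which makes up most of that sum, was higher (log2 3.02, adjusted p = 4.43e-05, edgeR), as was miR-223-5p (1.95, adjusted p = 0.00332). The macrophage miRNAs miR-511-3p (-3.10, adjusted p = 0.000638) and miR-511-5p (-1.88, adjusted p = 0.0472) were lower. The 5 lymphocyte markers took 0.880% to 1.12% of ConA+Vehicle and 0.572% to 0.819% of Vehicle counts, but only miR-342-3p was called (0.72, adjusted p = 0.0468), and the list's median of 0.10 equals that of all tested miRNAs. Per 1000 counts of miR-223-3p the cluster had 435 and 267 counts in ConA+Vehicle libraries, against 1077 and 620 in Vehicle libraries. The denominator itself rose by more than any member (log2 3.02, against at most 2.49 for miR-18a-5p). The lower values on that scale follow from this and are no separate result about the cluster. Both endothelial miR-126a arms were called lower (log2 -1.49 and -1.14). Of 6 hepatocyte markers 4 were called higher and 1 lower, and of 5 stellate cell and fibroblast markers 2 were lower. Of the miR-142a arms 1 was called higher, and no erythroid or bile duct marker was called. Of all tested miRNAs 19.9% were called higher and 16.8% lower. The part of a shift in cell types in the members' difference was not tested.

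The cluster was also set against miR-142a, which blood-derived cells of all kinds express. It had 116 and 85.7 counts per 1000 counts of the miR-142a arms in ConA+Vehicle libraries, against 48.7 and 85.7 in Vehicle libraries, so that ConA+Vehicle replicate 2 and Vehicle replicate 2 had the same value to 3 digits. In ConA+D8THC libraries it had 80.6 and 81.0. With libraries scaled to miR-142a in place of TMM, no member was called in either comparison with Vehicle. Of all tested miRNAs 24.2% were called on that scale in ConA+Vehicle and 18.5% in ConA+D8THC, higher or lower. On that scale the log2 differences between ConA+Vehicle and Vehicle were 0.19 to 1.30 (adjusted p = 0.185 to 0.847, edgeR), and the median of all tested miRNAs moved by -1.27. The members' median stood 1.77 above that of all tested miRNAs on the miR-142a scale and 1.64 above it on the TMM scale, a distance that such a scaling can hardly change, as it moves all miRNAs of a library alike. Per miR-142a count, ConA+Vehicle lay wholly above Vehicle for miR-18a-5p, miR-19a-3p and miR-19b-3p, 3 of 7 members where 10.1% of all tested miRNAs did so, and the groups overlapped for the other members. miR-18a-5p, the most changed of them, had 2.27 and 1.82 counts per 1000 miR-142a counts in ConA+Vehicle libraries, against 0.563 and 1.11 in Vehicle libraries. miR-142a itself took 7.31% and 2.53% of the counts in Vehicle replicates 1 and 2. For the summed cluster the Vehicle values on this scale differed most between replicates, but for miR-19a-3p and miR-20a-5p the ConA+Vehicle values did.

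**Figure D2:**
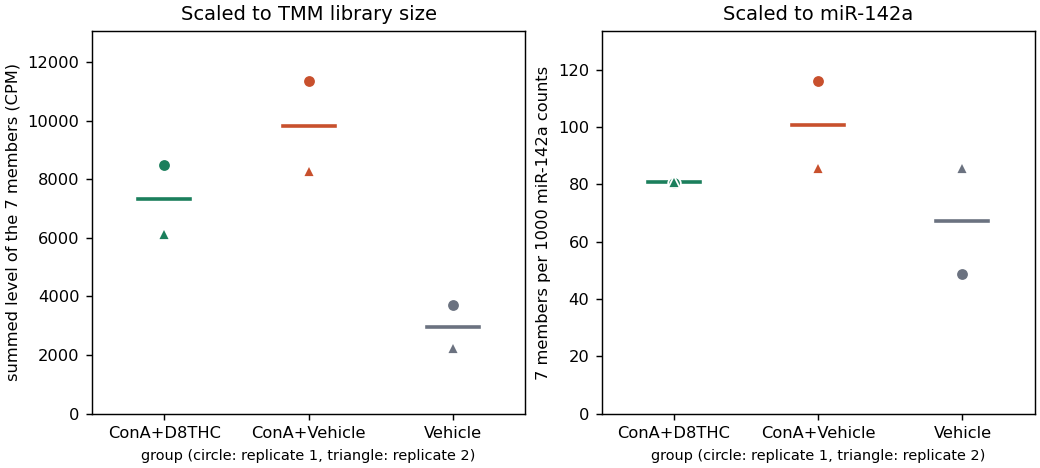
Summed 7 members in each library, in CPM on TMM-scaled totals (left) and as counts per 1000 counts of the miR-142a arms (right), both axes starting at 0, with a line for each group's mean. On the left both Vehicle libraries lie below all others, and on the right Vehicle replicate 2 lies level with ConA+Vehicle replicate 2 at 85.7.

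The comparison of ConA+D8THC with ConA+Vehicle cells asks how the cluster differs with the cannabinoid among mice given ConA. No member was called, where 3.70% of all tested miRNAs were called, each of them lower in ConA+D8THC. None of the 7 had an unadjusted p under 0.05 in edgeR, as 18.9% of all tested miRNAs did, and DESeq2 and limma-voom called none. The summed members averaged 7322 ± 1663 CPM in ConA+D8THC and 9804 ± 2178 CPM in ConA+Vehicle cells (SD, n = 2 each), a ratio of means of 0.747. The log2 differences ran from -0.54 to 0.08 with a median of -0.45, beside -0.04 over all tested miRNAs. ConA+D8THC lay wholly below ConA+Vehicle for miR-17-5p, miR-18a-5p and miR-19b-3p, 3 of 7 members where 25.3% of all tested miRNAs did so, and the groups overlapped for the other 4.

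miR-17-5p had 405.6 and 424.0 CPM in ConA+D8THC libraries, below the 620.8 and 509.7 CPM of the ConA+Vehicle libraries. The log2 difference was -0.45 ± 0.24 (95% interval -0.97 to 0.07). miR-18a-5p had 144.5 and 148.0 CPM in ConA+D8THC libraries, against 221.9 and 175.4 CPM in ConA+Vehicle libraries, with a log2 difference of -0.45 ± 0.32 (95% interval -1.16 to 0.27). miR-19b-3p had 2607 and 1973 CPM in ConA+D8THC libraries, against 3797 and 2850 CPM in ConA+Vehicle libraries. Both of its ConA+D8THC values were the lower ones, and the log2 difference was -0.54 ± 0.30 (95% interval -1.20 to 0.12).

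The other members overlapped. miR-20a-5p had 2840 and 1854 CPM in ConA+D8THC libraries, against 4099 and 2489 CPM in ConA+Vehicle libraries (log2 difference -0.49 ± 0.38, 95% interval -1.35 to 0.38). miR-19a-3p had 475.7 and 271.7 CPM, against 551.0 and 393.8 CPM (-0.34 ± 0.45, 95% interval -1.37 to 0.69). For both, the higher ConA+D8THC library exceeded the lower ConA+Vehicle library. miR-92a-3p had 1766 and 1316 CPM in ConA+D8THC libraries, against 1808 and 1698 CPM in ConA+Vehicle libraries (-0.19 ± 0.22, 95% interval -0.68 to 0.31). miR-17-3p had 259.0 and 159.3 CPM in ConA+D8THC libraries, against 246.8 and 148.9 CPM in ConA+Vehicle libraries (0.08 ± 0.37, 95% interval -0.74 to 0.89). The intervals of all 7 members held 0 as well as a fall, with lower bounds from -1.37 to -0.68, so these libraries do not show that the members were level in ConA+D8THC and ConA+Vehicle cells. The hepatocyte markers moved between the same groups, with 4 of 6 called lower in ConA+D8THC (5.18% to 7.15% of counts, against 17.1% to 19.7% in ConA+Vehicle), and the myeloid markers took 1.48% to 2.18% of ConA+D8THC and 2.76% to 2.92% of ConA+Vehicle counts with none of 4 called. Of these 4 miR-223-3p stood lower in ConA+D8THC (log2 -0.72), and miR-223-5p (0.23), miR-511-3p (0.77) and miR-511-5p (1.81) stood higher. In the other marker lists none was called. All 4 erythroid markers (median log2 -1.40) lay wholly lower in ConA+D8THC, and both miR-126a arms (median 0.76) lay wholly higher. Each of these had an unadjusted p under 0.05 in edgeR, as did 18.9% of all tested miRNAs. So did all 6 hepatocyte markers, which were lower, and 1 myeloid marker that was higher and 1 that was lower. Of 5 stellate cell and fibroblast markers 2, which were higher, had such a p. That list was split, with a median log2 of -0.03 and a lowest value of -1.39. The part of all these markers in the members' values was not tested.

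The comparison of ConA+D8THC with Vehicle cells uses the same Vehicle libraries as the comparison of ConA+Vehicle with Vehicle, so its values stand beside those above and are no independent support for them. The edgeR test called 7 of 7 members higher, where 18.5% of all tested miRNAs were called higher. The groups did not overlap for any member, and ConA+D8THC lay wholly above Vehicle for 37.7% of all tested miRNAs. The members' median log2 difference was 1.56, beside -0.06 over all tested miRNAs. miR-18a-5p again had the largest value, 2.04 ± 0.34 (4.12-fold, adjusted p = 0.00169), and miR-17-5p the smallest, 1.03 ± 0.24 (2.04-fold, adjusted p = 0.00936). In between, miR-17-3p was 3.10-fold, miR-19a-3p 3.02-fold, miR-19b-3p 2.36-fold, miR-92a-3p 2.95-fold and miR-20a-5p 2.27-fold higher, with adjusted p-values of 0.00936, 0.0307, 0.0125, 0.000797 and 0.0434 in this order. The value of miR-19a-3p rested on the Vehicle libraries here as well, at 2.46 on the log2 scale without replicate 1 and 1.06 without replicate 2, beside 1.60 with both. That of miR-20a-5p was 1.77 without Vehicle replicate 1 and 0.80 without Vehicle replicate 2, beside 1.19 with both. On the miR-142a scale the members' log2 differences between ConA+D8THC and Vehicle were -0.11 to 1.00, and only miR-18a-5p and miR-19a-3p lay wholly above Vehicle, where 9.09% of all tested miRNAs did so. Per 1000 counts of miR-223-3p the cluster had 419 and 428 counts in ConA+D8THC libraries, below both Vehicle values. Here too miR-223-3p had risen by more than any member (log2 2.30, against at most 2.04), so these lower values are no separate result.

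The make-up of the members' summed count was compared next. This is not the make-up of Mir17hg alone, since miR-19b-3p and miR-92a-3p also have hairpins on chromosome X. miR-20a-5p made 31.8% ± 2.3, 33.1% ± 4.3 and 34.1% ± 4.7 of the cluster's count in ConA+D8THC, ConA+Vehicle and Vehicle cells (mean ± SD, n = 2 each), and miR-19b-3p made 31.4% ± 1.0, 34.0% ± 0.71 and 32.5% ± 1.6. miR-92a-3p came next, with 21.1% ± 0.45, 18.2% ± 3.3 and 18.6% ± 5.4. These 3 miRNAs thus held most of the count in every group. For miR-20a-5p and miR-92a-3p the group means differed by less than the largest SD, while the ConA+D8THC libraries of miR-19b-3p, at 30.7% and 32.1%, lay below its ConA+Vehicle libraries, at 33.5% and 34.5%.

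miR-17-5p, miR-19a-3p and miR-17-3p held smaller shares, of 5.84%, 5.01% and 2.82% in ConA+D8THC, 5.82%, 4.81% and 1.99% in ConA+Vehicle, and 7.22%, 4.0% and 2.34% in Vehicle cells. miR-18a-5p made 1.70% and 2.41% of the cluster's count in ConA+D8THC libraries, 1.96% and 2.12% in ConA+Vehicle libraries, and 1.16% and 1.30% in Vehicle libraries. Both Vehicle values were thus below all others, but the exact binomial 95% intervals, which cover counting error only, touched between groups: 1.43% to 2.00% for ConA+D8THC replicate 1 and 0.896% to 1.82% for Vehicle replicate 2. With 2 libraries against 2 the smallest exact two-sided permutation p is 0.33, so no permutation test was run on the shares.

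**Figure D3:**
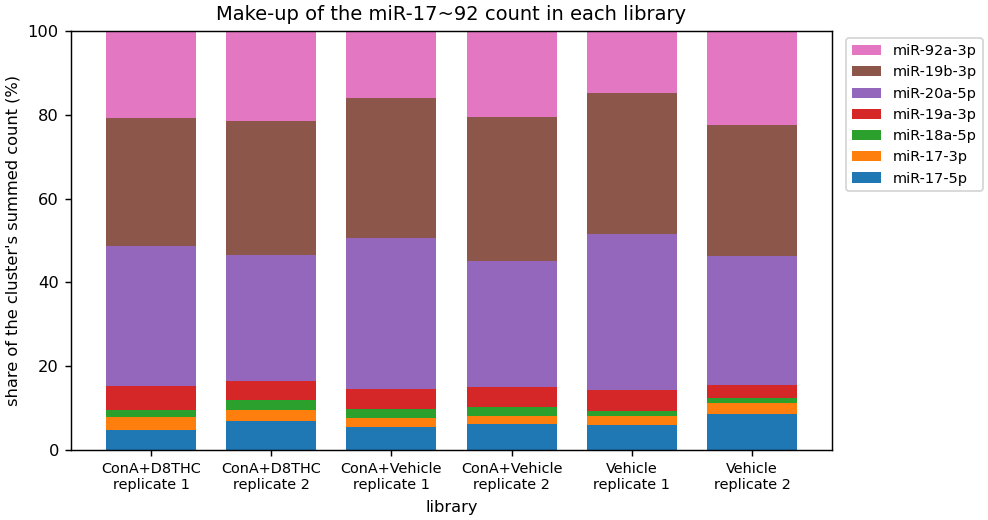
Share of each member in the summed count of the 7 members (y axis, percent, stacked to 100) in each of the 6 libraries (x axis). miR-20a-5p, miR-19b-3p and miR-92a-3p fill most of every bar, and the thin miR-18a-5p band is narrowest in the Vehicle libraries, at 1.16% and 1.30%.

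The same question was put to the fit across all miRNAs, with each library's size set to the cluster's own sum. No member was called in any of the 3 comparisons, where 71.0% of all tested miRNAs were called between ConA+Vehicle and Vehicle, 2.02% between ConA+D8THC and ConA+Vehicle, and 63.3% between ConA+D8THC and Vehicle, and none of the 7 had an unadjusted p under 0.05 in any. The members centre on 0 by construction on this scale while all other miRNAs shift with the sum, so these shares are no measure of how alike the members were. Between ConA+Vehicle and Vehicle the members' log2 differences from the sum ran from -0.31 for miR-17-5p to 0.73 for miR-18a-5p (adjusted p = 0.189 to 0.949, edgeR). The interval of miR-18a-5p between ConA+D8THC and Vehicle was -0.27 to 1.74, which held 0 as well as a change much larger than that of the sum. The SEs were 0.45 to 0.51 between ConA+Vehicle and Vehicle, above those of all members but miR-19a-3p on the TMM scale.

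Both strands of the Mir17 hairpin were counted in every library. miR-17-5p had 1.57 and 2.66 counts for each count of miR-17-3p in ConA+D8THC libraries, 2.52 and 3.42 in ConA+Vehicle libraries, and 2.71 and 3.41 in Vehicle libraries. The 5p strand was the more abundant in all 6, and the groups overlapped. Of the other arms of the cluster's hairpins, miR-92a-1-5p alone passed the filter on low counts, with 58.8 and 38.4 CPM in ConA+D8THC libraries, 82.3 and 39.7 CPM in ConA+Vehicle libraries, and 24.8 and 14.9 CPM in Vehicle libraries. It comes from Mir92-1 of Mir17hg and not from the chromosome X hairpin, whose own arm miR-92a-2-5p had no count in any library. It was higher in ConA+Vehicle than in Vehicle cells (log2 1.68 ± 0.47, adjusted p = 0.0169), but was not called by DESeq2 (adjusted p = 0.0653) or with ConA+Vehicle replicate 1 left out (1.06, adjusted p = 0.244). It was also higher in ConA+D8THC than in Vehicle cells (1.34 ± 0.44, adjusted p = 0.0406), which ended in DESeq2 (0.129) and without ConA+D8THC replicate 1 (0.198) or Vehicle replicate 2 (0.122). With libraries scaled to miR-142a, miR-92a-1-5p was called in neither comparison with Vehicle (log2 0.51 in ConA+Vehicle and 0.27 in ConA+D8THC). miR-92a-3p outnumbered miR-92a-1-5p by 30.0 and 34.3 to 1 in ConA+D8THC, 22.0 and 42.8 in ConA+Vehicle, and 22.0 and 33.6 in Vehicle libraries. miR-18a-3p, miR-20a-3p, miR-19b-1-5p and miR-19a-5p had between 0 and 13 counts in a library and were not tested.

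The chromosome X paralogs are shown beside the members because they are nearly the same sequence. miR-17-5p differs from miR-106a-5p by U10A, miR-20a-5p from miR-20b-5p by U1C and U10C, and miR-18a-5p from miR-18b-5p by A18U and A20U, so that reads could be split between the partners.
miR-106a-5p: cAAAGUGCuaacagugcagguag
miR-20b-5p: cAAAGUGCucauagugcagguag
miR-18b-5p: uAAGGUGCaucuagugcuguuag

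Of the 10 listed miRNAs of that paralogous cluster, 4 were tested, and all 4 were called higher in ConA+D8THC and in ConA+Vehicle than in Vehicle cells, where 18.5% and 19.9% of all tested miRNAs were. With libraries scaled to miR-142a none of the 4 was called in ConA+D8THC, and only miR-18b-5p in ConA+Vehicle. Of all tested miRNAs 18.5% and 24.2% were called on that scale, higher or lower. miR-20b-5p, the most abundant, had 1534 and 990.2 CPM in ConA+D8THC libraries, 1683 and 1453 CPM in ConA+Vehicle libraries, and 224.9 and 169.2 CPM in Vehicle libraries. Its log2 differences from Vehicle were 2.68 ± 0.28 in ConA+D8THC and 3.0 ± 0.29 in ConA+Vehicle (adjusted p = 0.000164 and 6.14e-05, edgeR). miR-20b-5p had 54.0 and 53.4 counts per 100 of miR-20a-5p in ConA+D8THC libraries, 41.1 and 58.4 in ConA+Vehicle libraries, and 16.3 and 24.7 in Vehicle libraries, so that the Vehicle values lay below all others. Relative to the sum of the 7 members it was called higher in ConA+Vehicle (log2 1.24 ± 0.46, adjusted p = 0.0151) and in ConA+D8THC (1.32 ± 0.46, adjusted p = 0.0115) than in Vehicle, where 4.71% and 3.70% of all tested miRNAs were called higher than the sum. The call in ConA+Vehicle ended without ConA+Vehicle replicate 1 or 2 or Vehicle replicate 1 (adjusted p = 0.0573, 0.0745 and 0.0692), and that in ConA+D8THC without ConA+D8THC replicate 1 or Vehicle replicate 1 (0.114 and 0.0582).

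miR-106a-5p had 216.7 and 176.4 CPM in ConA+D8THC libraries, 393.9 and 244.9 CPM in ConA+Vehicle libraries, and 62.1 and 54.3 CPM in Vehicle libraries. Per 100 counts of miR-17-5p this was 53.4 and 41.6, 63.5 and 48.1, and 28.7 and 28.4, again lowest in the Vehicle libraries. miR-18b-5p had 123.8 and 103.9 CPM in ConA+D8THC, 139.6 and 129.1 CPM in ConA+Vehicle, and 27.6 and 7.89 CPM in Vehicle libraries. Relative to the cluster's sum miR-18b-5p was called higher in ConA+Vehicle (1.33, adjusted p = 0.0324) and in ConA+D8THC (1.5, adjusted p = 0.0165) than in Vehicle, calls that held in 2 and 6 of 9 alternatives. Without Vehicle replicate 1 these values were 1.96 in ConA+Vehicle and 2.14 in ConA+D8THC, and without Vehicle replicate 2 they were 0.89 in ConA+Vehicle and 1.07 in ConA+D8THC and not called. Its log2 difference between ConA+Vehicle and Vehicle of 3.0 became 4.04 without Vehicle replicate 1 and 2.29 without Vehicle replicate 2. miR-363-3p, which carries the seed of miR-92a-3p, had 116.6 and 64.0 CPM in ConA+D8THC, 99.7 and 109.2 CPM in ConA+Vehicle, and 27.6 and 10.5 CPM in Vehicle libraries. Its log2 difference between ConA+Vehicle and Vehicle was 2.51 ± 0.50 (adjusted p = 0.00318), or 3.27 without Vehicle replicate 1 and 1.92 without Vehicle replicate 2.

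With the near-identical partners summed, all 3 members concerned were still called higher in ConA+Vehicle and in ConA+D8THC than in Vehicle cells.

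The second paralog cluster, miR-106b~25, lies on chromosome 5 in an intron of Mcm7, a gene of the DNA replication helicase. All 6 of its listed miRNAs were tested, and 3 were called higher in ConA+D8THC and 4 in ConA+Vehicle than in Vehicle cells, where 18.5% and 19.9% of all tested miRNAs were. None of the 6 was called higher with libraries scaled to miR-142a, where miR-93-5p stood at 0.18 in ConA+D8THC and 0.058 in ConA+Vehicle on the log2 scale. With that scaling 18.5% and 24.2% of all tested miRNAs were called in these groups, higher or lower. miR-93-5p, with the miR-17 seed, had 9789 and 7335 CPM in ConA+D8THC libraries, 8594 and 8320 CPM in ConA+Vehicle libraries, and 4061 and 2963 CPM in Vehicle libraries. Its log2 difference between ConA+Vehicle and Vehicle was 1.27 ± 0.24 (adjusted p = 0.00200), and that of miR-25-3p, with the seed of miR-92a-3p, was 1.09 ± 0.22 (adjusted p = 0.00332). Relative to the sum of the 7 members neither was called. miR-106b-5p, which has the miR-17 seed and lies in the same intron as miR-93-5p, had 65.0 and 41.3 CPM in ConA+D8THC libraries, 72.3 and 46.3 CPM in ConA+Vehicle libraries, and 74.5 and 48.2 CPM in Vehicle libraries. Its groups overlapped throughout, and relative to the members' sum it was called lower in ConA+Vehicle (-1.79 ± 0.54, adjusted p = 0.00365, with the call kept in 9 of 9 alternatives) and in ConA+D8THC (-1.53 ± 0.52, adjusted p = 0.00989, kept in 7 of 9) than in Vehicle, where 66.3% and 59.6% of all tested miRNAs were called lower than the sum. miR-93-3p was also called lower than the sum in ConA+Vehicle (-1.84, adjusted p = 0.0137) and in ConA+D8THC (-1.98, adjusted p = 0.00664), from 3 to 15 counts a library, calls kept in 6 and 8 of 9 alternatives. miR-106b-3p was called higher in ConA+Vehicle (1.26 ± 0.38, adjusted p = 0.0226, kept in 11 of 16 alternatives) and not in ConA+D8THC (1.02 ± 0.36, adjusted p = 0.0519, called in 8 of 16). The low-count miR-25-5p, with 1 to 25 counts a library, was called higher than Vehicle in both ConA groups (log2 3.04 in each), at 4.50 in ConA+D8THC and 4.49 in ConA+Vehicle without Vehicle replicate 1 and at 2.10 and 2.08 without Vehicle replicate 2, and its call in ConA+Vehicle ended without ConA+Vehicle replicate 1 (2.54, adjusted p = 0.0912). Relative to the members' sum miR-25-5p was called higher in ConA+D8THC than in Vehicle (1.73, adjusted p = 0.0390), at 2.95 without Vehicle replicate 1 and 1.10 without Vehicle replicate 2, and the call held in 3 of 9 alternatives.

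**Figure D4:**
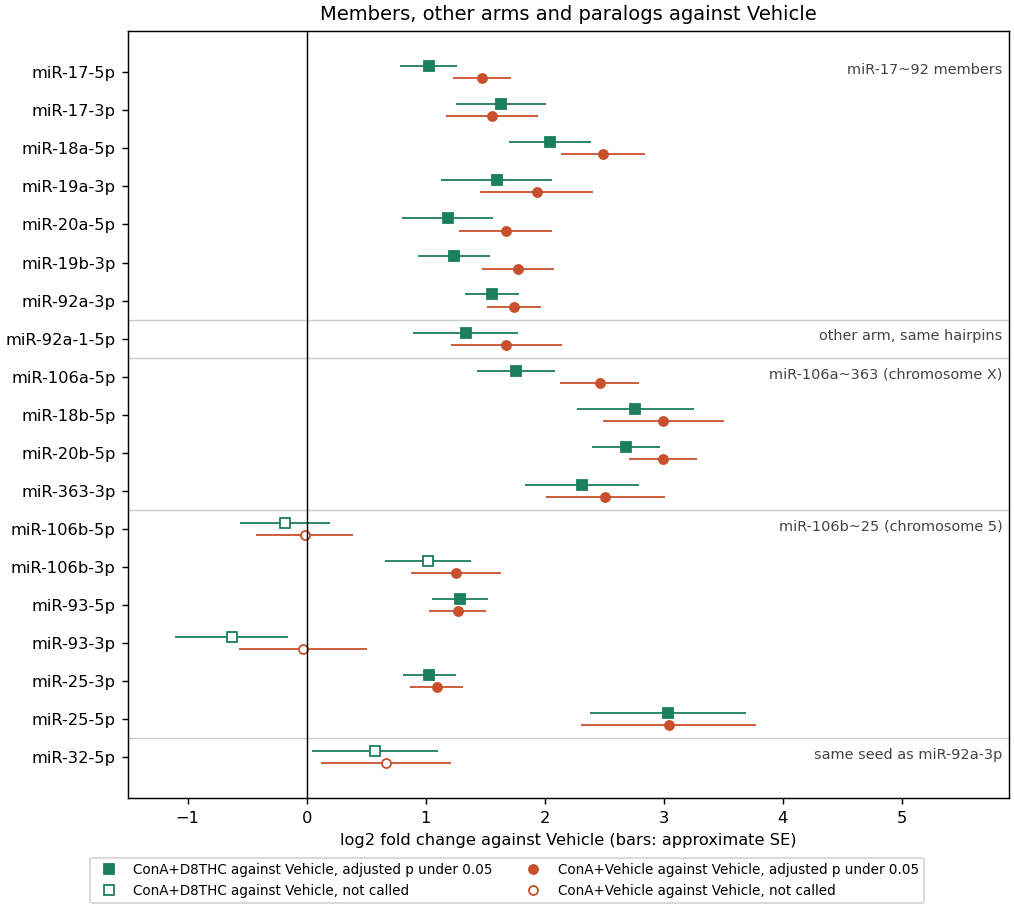
Log2 fold change against Vehicle (x axis, bars for the approximate SE) of the 7 members, the tested other arm, the tested miRNAs of both paralog clusters and miR-32-5p (y axis), in ConA+D8THC (squares) and ConA+Vehicle (circles), filled where the adjusted p was under 0.05. The members lie between 1.03 and 2.49, the chromosome X paralogs between 1.76 and 3.0, and miR-106b-5p at -0.18 and -0.02.

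Because members and paralogs with 1 seed share target sites, each seed group was also summed over the listed miRNAs. The count table was not searched for other miRNAs with these seeds. The 6 listed miRNAs with the seed AAAGUGC summed to 14850 and 10821 CPM in ConA+D8THC libraries, 15463 and 13063 CPM in ConA+Vehicle libraries, and 6024 and 4110 CPM in Vehicle libraries. miR-17-5p and miR-20a-5p together made 21.9% and 21% of it in ConA+D8THC, 30.5% and 23.0% in ConA+Vehicle, and 26.6% and 21.3% in Vehicle libraries, with miR-93-5p the largest part in every library. The listed miRNAs with the seed AUUGCAC summed to 7697 and 5863 CPM in ConA+D8THC libraries, 7430 and 7059 CPM in ConA+Vehicle libraries, and 3486 and 2699 CPM in Vehicle libraries. miR-92a-3p made 22.9% and 22.4% of that sum in ConA+D8THC, 24.3% and 24.1% in ConA+Vehicle, and 15.7% and 18.5% in Vehicle libraries, where it was lowest, and miR-25-3p made most of the rest. The third miRNA of that group by level, miR-32-5p, had 157.9 and 133.7 CPM, 147.1 and 165.5 CPM, and 158.7 and 41.2 CPM in the same order of groups and was not called (log2 0.57 in ConA+D8THC and 0.67 in ConA+Vehicle against Vehicle). Without Vehicle replicate 1 it was called higher in both, at 1.82 and 1.90.

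The seed of miR-18a-5p is shared with miR-18b-5p only among the listed miRNAs, and miR-18a-5p made 53.8% and 58.8% of their sum in ConA+D8THC, 61.4% and 57.6% in ConA+Vehicle, and 60.8% and 78.6% in Vehicle libraries. The seed GUGCAAA belongs to miR-19a-3p and miR-19b-3p alone among them, and their sum was 3082 and 2245 CPM in ConA+D8THC, 4348 and 3243 CPM in ConA+Vehicle, and 1428 and 766.2 CPM in Vehicle libraries. miR-19b-3p held most of it, with 5.48 and 7.26 counts for each of miR-19a-3p in ConA+D8THC, 6.89 and 7.24 in ConA+Vehicle, and 6.78 and 10.4 in Vehicle libraries.

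**Figure D5:**
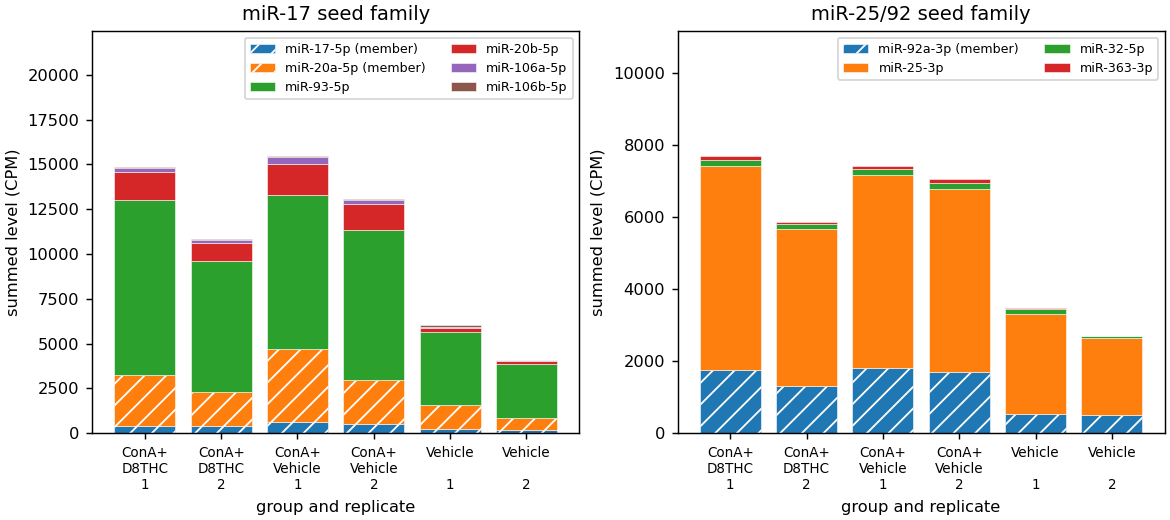
Summed level (CPM on TMM-scaled totals) of the listed miRNAs with the miR-17 seed (left) and with the miR-25/92 seed (right) in each library. Bars are split by miRNA, with cluster members hatched and miRNAs under 10 CPM on average left out. miR-93-5p and miR-25-3p are the tallest parts, and the bars of both Vehicle libraries, at 6024 and 4110 CPM on the left, are the lowest.

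Across the 6 libraries the members moved together: Pearson's r between the log2 levels of 2 members ran from 0.891 to 0.989 over the 21 pairs, with a median of 0.946, a description of 6 libraries in which the groups themselves differ and all values share the library scaling. The miRNAs outside the listed clusters whose pattern was most like the members' mean log2 level, among 135 with at least 100 CPM on average, were miR-155-5p (r = 0.983), miR-15b-3p (0.980), miR-210-3p (0.972), miR-185-5p (0.971) and miR-140-3p (0.968). These r values rest on the same 6 libraries and do not measure the size of a difference. Of these miRNAs, miR-185-5p alone was not called against Vehicle (log2 0.67 in ConA+Vehicle and 0.55 in ConA+D8THC). miR-155-5p, a miRNA of activated lymphocytes and macrophages, had 7285 and 5460 CPM in ConA+D8THC, 9125 and 8489 CPM in ConA+Vehicle, and 1511 and 1091 CPM in Vehicle libraries. The most opposite patterns were those of miR-30a-3p (r = -0.998), let-7e-5p (-0.992) and let-7b-5p (-0.989). let-7e-5p, of a family that restrains Myc and Ras, had 1479 and 1767 CPM in ConA+D8THC, 1162 and 1344 CPM in ConA+Vehicle, and 2543 and 3286 CPM in Vehicle libraries.

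A list of 17 miRNAs known to rise when lymphocytes or macrophages are activated gave 8 higher and 0 lower of 16 tested between ConA+Vehicle and Vehicle, with a median log2 difference of 0.83 beside the members' 1.74 and 0.10 over all tested miRNAs, of which 19.9% were called higher. Between ConA+D8THC and Vehicle 9 were higher, with a median of 1.04 beside the members' 1.56 and -0.06 over all, of which 18.5% were called higher. Of 25 listed miRNAs of resting or less dividing cells, let-7, miR-26, miR-15/16, miR-29 and miR-30 among them, 1 (miR-29c-3p) was higher and 9 lower between ConA+Vehicle and Vehicle, and 0 higher and 8 lower between ConA+D8THC and Vehicle. Of all tested miRNAs 16.8% and 14.1% were called lower in these comparisons. Between ConA+D8THC and ConA+Vehicle none of either list was called, as for the members. Per unadjusted p under 0.05 in edgeR this was 1 of the activation list, which was lower, and 0 of the other list.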

How the data were processed

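Per the labels' protocols, liver immune cells were isolated with a Miltenyi dissociation kit, RNA with a miRNeasy kit, and libraries with a QIAseq miRNA kit for a NextSeq 550. The deposited values are raw counts per mature miRNA, which the authors made in QIAGEN's GeneGlobe portal per the series' design text, on build mm10 per the submitters' processing notes. Which aligner was used, how a read with several matches was treated, and if molecular identifiers were collapsed is not given in the sources used here, so miRNAs of almost the same sequence may share reads.

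Counts were tested over the whole table in R 4.3.3 with edgeR 4.0.16 (filterByExpr by group, TMM, glmQLFit with robust estimation and glmQLFTest on group means over all 6 libraries, 3 residual degrees of freedom) and adjusted by Benjamini-Hochberg over 297 miRNAs with 99.9% or more of every library's counts. Calls were made under an adjusted p of 0.05. An approximate SE is the size of a log2 fold change divided by the root of its F, and 95% intervals use that SE with the test's degrees of freedom. Counts relative to the cluster used the members' summed count as library size. On simulated data for ConA+Vehicle against Vehicle (10 draws, 200 of 806 miRNAs changed), 34.1% of 2-fold and 82.7% of 4-fold changes that passed the filter were recovered. limma 3.58.1 and DESeq2 1.42.0 gave alternatives, and Python 3.11.15 with matplotlib 3.10.9 the figures.

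All members were described in each comparison, with the other arms, both paralog clusters, miRNAs that share the miR-25/92 seed, the 5 most and 3 least alike patterns, and fixed lists of activation, resting-cell and cell type miRNAs. Members and lists were chosen with earlier results of these data known. The labels call the libraries biological replicates without naming animals per library, so p-values measure the spread between these libraries. No label says that equal replicate numbers pair libraries. The binomial intervals of shares and the floors cover counting error only. Sequences and hairpin positions are RefSeq's, matched by miRNA name for 29 of 31 listed miRNAs, and the exons are GENCODE M21's.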

Additional observations from a re-analysis of the deposited data

How the results depend on the processing

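In the comparisons with Vehicle all 7 members kept their direction and call under every alternative scaling, filter and tool tried other than scaling to miR-142a, which gave 0 members called in ConA+Vehicle and 0 in ConA+D8THC against Vehicle, turned miR-17-5p in ConA+D8THC to -0.11 on the log2 scale, and moved the median of all tested miRNAs by -1.27 and -1.14. With that scaling 24.2% and 18.5% of all tested miRNAs were called in these 2 comparisons, higher or lower. Scaling to miR-142a also turned miR-25-3p (-0.14), miR-32-5p (-0.19), miR-185-5p (-0.58) and miR-140-3p (-0.15) in ConA+Vehicle against Vehicle, and miR-106b-3p (-0.056), miR-25-3p (-0.098) and miR-32-5p (-0.18) in ConA+D8THC against Vehicle; the cause was not tested. Leaving out 1 library left 5 to 7 members called in ConA+Vehicle and 7 in ConA+D8THC against Vehicle, with the lone library of a group assumed to vary like the others. Without ConA+Vehicle replicate 1 the calls over all miRNAs fell to 67, against 109 with it.

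The replicate numbers were not shown to pair libraries (deviations from the group means correlated at 0.073 between ConA+D8THC and ConA+Vehicle, 0.238 between ConA+D8THC and Vehicle, and 0.203 between ConA+Vehicle and Vehicle, across 297 miRNAs). With the replicate number as a block, 1 member, miR-19b-3p, was called lower in ConA+D8THC than in ConA+Vehicle (adjusted p = 0.0390, edgeR), and the calls over all miRNAs were 44 in place of 11. Under the same block 1 member, miR-18a-5p, was called higher than the cluster's sum in ConA+Vehicle and 1, again miR-18a-5p, in ConA+D8THC, each against Vehicle. The block changed no other member's call.

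Small differences changed sign. Between ConA+D8THC and ConA+Vehicle, miR-17-3p was at -0.024 with upper-quartile factors, and over the fits that leave out 1 library miR-17-3p ran from -0.30 to 0.49, miR-19a-3p from -0.78 to 0.039 and miR-92a-3p from -0.40 to 0.040. Between ConA+Vehicle and Vehicle, miR-106b-5p was at 0.023 with upper-quartile factors, 0.038 with library totals and 0.019 in limma-voom, and miR-93-3p at 0.018 with library totals and 0.014 in limma-voom. Over the fits without 1 library miR-106b-5p ran from -0.36 to 0.30, miR-93-3p from -0.64 to 0.35 and miR-32-5p from -0.011 to 1.90 in that comparison, and miR-106b-5p from -0.54 to 0.17 and miR-32-5p from -0.084 to 1.82 between ConA+D8THC and Vehicle. Summing near-identical partners moved 14 of 21 member shares by over 1 SD.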

Other observations

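In each group the library numbered 1 held more of the cluster than the library numbered 2, by 1.38 times in ConA+D8THC, 1.37 times in ConA+Vehicle and 1.66 times in Vehicle cells (ratio of summed CPM). This held for 5 of 7 members in ConA+D8THC and for 7 of 7 in ConA+Vehicle and in Vehicle cells, whereas 53.5%, 50.8% and 54.5% of all tested miRNAs were higher in that library. The miR-142a arms leaned the same way in percent of counts. They took 11.2% against 7.72% in ConA+D8THC, 10.3% against 9.03% in ConA+Vehicle, and 7.31% against 2.53% in Vehicle libraries. The summed lymphocyte and erythroid markers also took more in the library numbered 1 in every group, and the hepatocyte and endothelial markers less. Myeloid, stellate cell and bile duct markers were mixed. The part of these markers in the cluster's lean was not tested. The labels give no date, batch or animal for the numbers.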
